A study of Homo sapiens with 2 samples.

Results

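Keratins are the intermediate filament proteins of epithelial cells, and their transcripts were followed here in PC3 cells after knockdown of SUB1. The keratin genes were taken as every gene probe on the array named KRT with a number, also under an older name of such a gene. Keratin-associated proteins and pseudogenes were left out. KRT222 was kept, although the array names it KRT222P, because RefSeq lists it as protein coding. This gave 63 probes for 54 genes, of 41000 probes and 30482 gene names on the array. A single probe stood for 47 of the genes, and 7 genes had several. Each keratin probe was printed once on each array, and none of its spots was an outlier or saturated.

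PC3 is an established cell line from a metastasis of prostate cancer, and all groups were that line. RNA from cells given Non-T siRNA, a non-targeting control, was labelled with Cy3. RNA from cells given SUB1 siRNA 1 or SUB1 siRNA 2, separate duplexes against the transcriptional coactivator SUB1, was labelled with Cy5 and hybridised against it on 1 dual-colour array per siRNA, 72 h after the first transfection. The comparison asks which genes depend on SUB1 in these cells. Each siRNA had 1 array and dyes were not swapped, so no value for 1 siRNA has a replicate, and a dye bias of a probe and the knockdown cannot be told apart. A ratio here is the log2 ratio of Cy5 over Cy3 after loess within the array, positive where the SUB1 siRNA cells were higher.

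A keratin filament is built from heterodimers of an acidic type I and a basic type II chain, so members work in pairs. KRT8 and KRT18 are the first pair of simple, single-layered epithelia and of luminal prostate cells, joined there by KRT7 and KRT19. KRT5, KRT14 and KRT15 belong to basal cells, KRT6, KRT16 and KRT17 to activated and wounded epithelium, KRT1, KRT10, KRT4 and KRT13 to the upper layers of stratified epithelia, and KRT31 to KRT40 and KRT81 to KRT86 to hair and nail. Filaments are anchored at desmosomes and hemidesmosomes by plakin proteins. Type I genes form a cluster on chromosome 17 and type II genes one on chromosome 12, where KRT18 also lies.

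The SUB1 probes were lower on both arrays. The ratios of the 4 SUB1 probes were between -1.81 and -3.75 with siRNA 1 and between -1.57 and -3.50 with siRNA 2. Gene spots well above background made up 54.3% in Cy3 on both arrays, and 67.2% and 64.5% in Cy5. The epithelial marker list had 6 of 7 genes detected, all but ESRP1, and the basal list 3 of 4, all but KRT5. For KLK3, a prostate luminal marker, the probe of the RefSeq mRNA was not well above background in any channel. The brighter of 2 detected KLK3 probes, of a splice variant, had an intensity of 18634 in the Cy3 channel of the siRNA 1 array. Of the markers of other cells, CD3E and CD14 (immune) were detected and PTPRC was not. CD3E and CD14 had intensities between 102 and 128, near the Cy3 medians of 86.5 and 78.6 of the negative control spots. Detected were also 2 of 3 endothelial genes (not CDH5), 2 of 5 fibroblast and muscle genes (not COL3A1, ACTA2 or DES) and 2 of 3 neuroendocrine genes (not SYP). The detected genes of these lists had intensities between 83.8 and 259. None of the marker genes named here was past 2-fold with either siRNA in its brightest detected probe.

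PC3 cells had signal for part of the simple epithelial, basal, stratified layer, root sheath and hair keratins, but for none of the activation keratins. A probe was called detected where, on each of the arrays, the scanner software marked it as well above background in either dye. This held for 30 of the 63 keratin probes, or 47.6%, and for 24 of the 54 genes. Over all probes of the array, 62.6% were detected. In all 4 channels (both dyes on both arrays), 26 keratin probes of 21 genes were well above background. The probes well above background in no channel numbered 30, and 27 genes had only such probes. KRT79, KRT20 and KRT35 were above it on 1 array only, and their ratios are not given.

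By role, the type II keratins grouped here with simple epithelia were all detected (KRT7, KRT8 and KRT80, the last found in many epithelia). Of the 4 type I genes of simple epithelia, KRT18 and KRT19 were detected and KRT20 and KRT23 were not. Of the 3 basal genes, KRT14 and KRT15 were detected and KRT5, the type II partner of KRT14, was not. None of the 5 activation and wound genes KRT6A, KRT6B, KRT6C, KRT16 and KRT17 was detected. The stratified layer keratins had 6 of 13 genes detected, the root sheath keratins 1 of 9 (KRT71), and the hair and nail keratins 10 of 16. The 33 probes without detection had Cy3 intensities between 78 and 119 on the siRNA 1 array and between 69.6 and 104 on the siRNA 2 array. The negative control spots had medians of 86.5 and 78.6 in that channel.

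**Figure D1:**
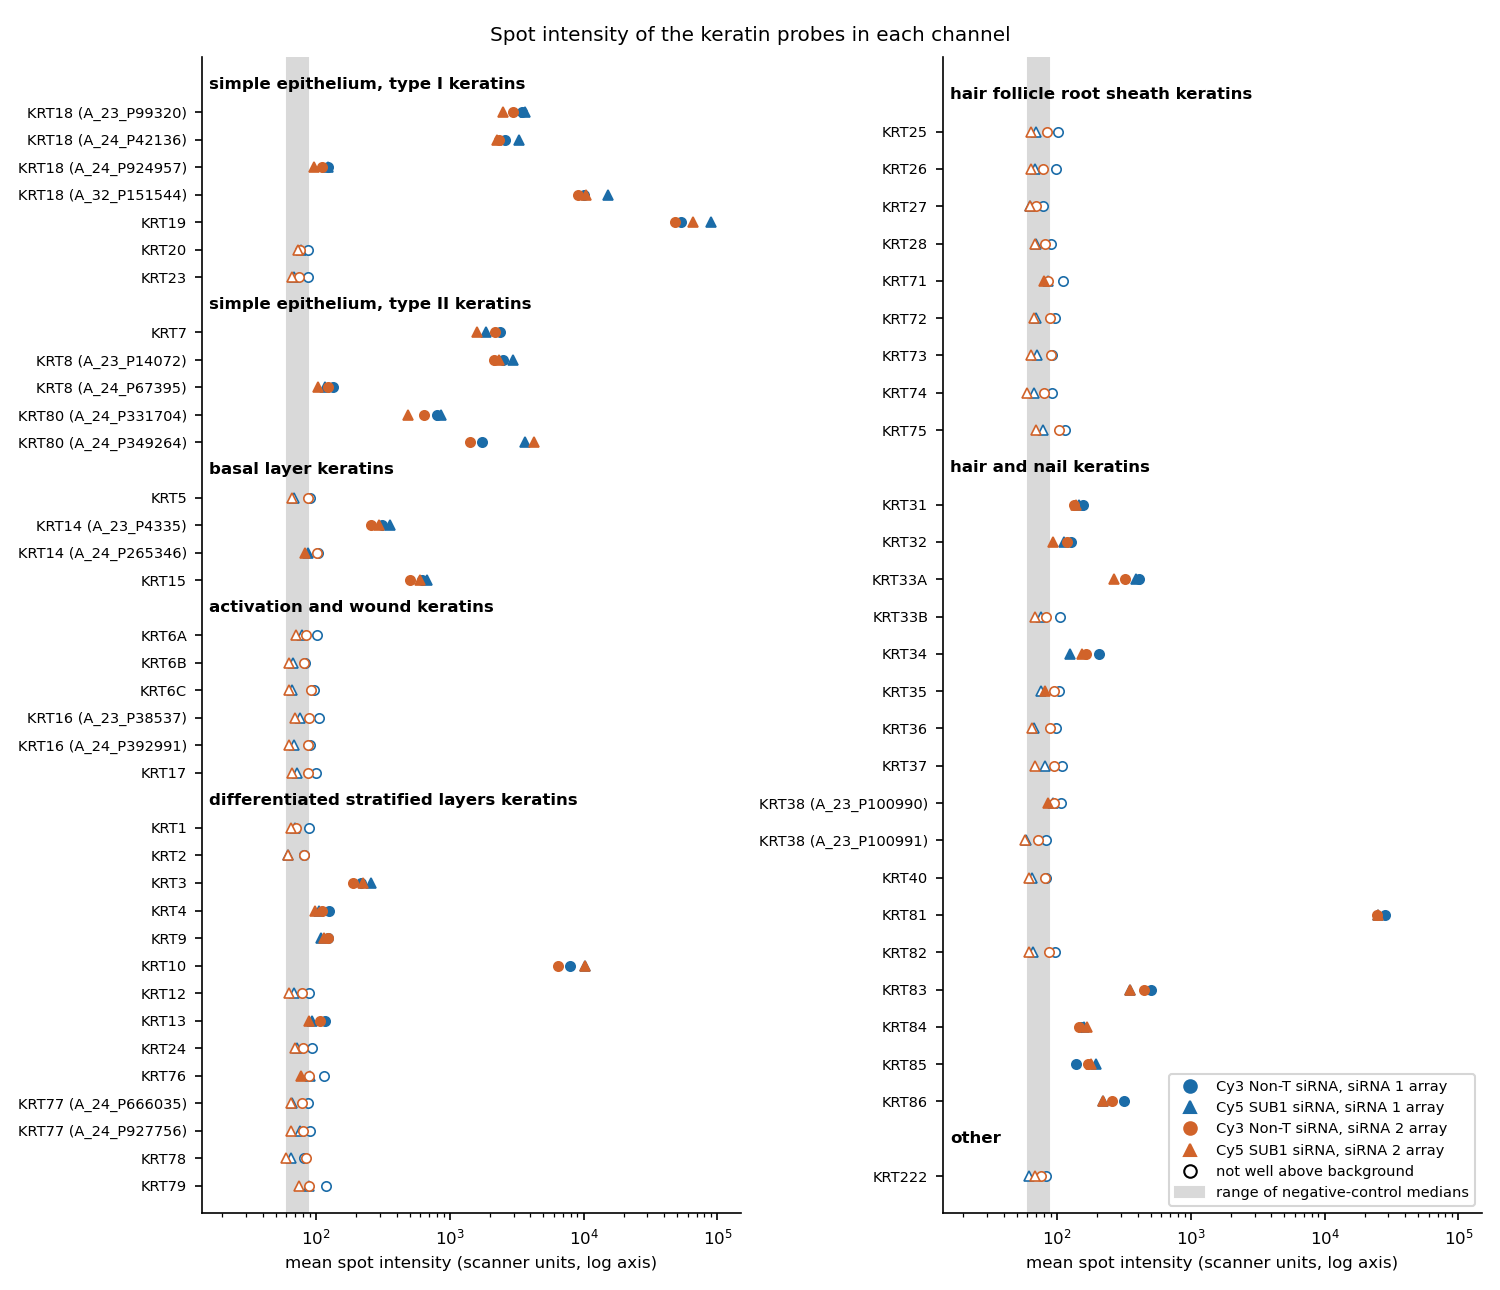
Mean spot intensity of all 63 keratin probes in scanner units on a log axis, grouped by role, with circles for Cy3 (Non-T siRNA), triangles for Cy5 (SUB1 siRNA), blue for the siRNA 1 array and orange for the siRNA 2 array. Filled symbols are well above background, the grey band spans the medians of the negative control spots, and all 6 probes of the activation keratins are open and near the band. Probes differ in how they bind, so positions along the axis do not rank genes.

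No keratin probe reached a 2-fold difference with siRNA 1, and 1 did with siRNA 2, a KRT80 probe that was higher. The study's methods call a gene changed at 2-fold on an array, with no test. Over all 25673 detected probes, 0.195% passed 2-fold upwards and 0.557% downwards with siRNA 1, and 0.526% and 0.923% with siRNA 2. The keratin counts of 0 and 0, and of 1 and 0, were taken over 30 probes, where such shares correspond to less than a single probe each. Of all 2-fold calls, 25.9% (siRNA 1) and 36.3% (siRNA 2) were higher. With the arrays centred on their medians in place of loess, 70.4% and 72.9% were, and with the scanner software's processed signals 72.5% and 67.1%.

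The median ratio of the 30 keratin probes was -0.04 with siRNA 1, within a range of -0.78 to 0.77, beside a median of 0.01 over all detected probes. With siRNA 2 it was -0.07, within -0.76 to 1.28, beside 0.02 over all. The keratin ratios had an SD across probes of 0.35 and 0.37, and all detected probes had one of 0.29 and 0.33. Ratios were below 0 for 18 keratin probes with siRNA 1 (60.0%) and 17 with siRNA 2 (56.7%), where 47.5% and 47.6% of all detected probes were. On both arrays 11 were below 0 and 6 above, and 13 had opposite signs. The arrays share the control condition, so these counts are no measure of agreement between the siRNAs. Among 209 probes printed 10 times on each array, the SD of a ratio over its spots had a median of 0.078 and 0.074, which covers spotting and scanning only. Over all detected probes, the difference between the arrays had an SD of 0.31.

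**Figure D2:**
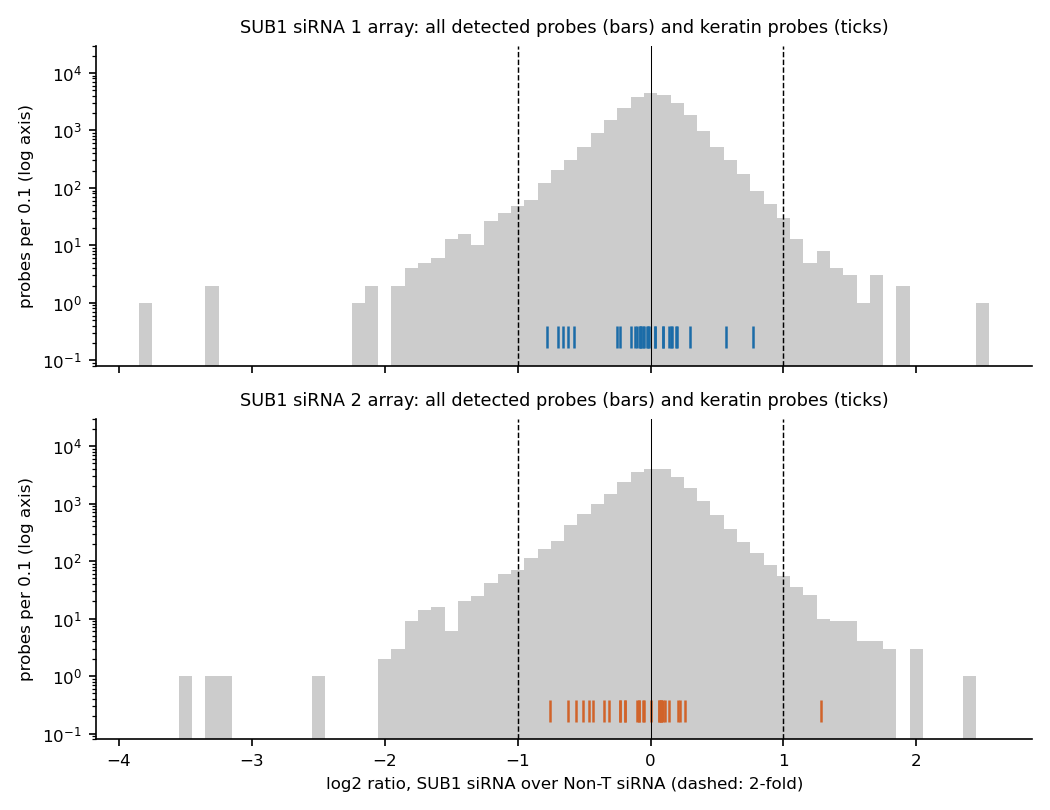
Number of detected probes of the whole array per 0.1 of log2 ratio (grey bars, log axis), with each of the 30 detected keratin probes as a coloured tick, for siRNA 1 (top) and siRNA 2 (bottom). Dashed lines mark 2-fold, and the only keratin tick outside them is that of KRT80 at 1.28 with siRNA 2.

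Among the type II keratins grouped here with simple epithelia, KRT7 was lower and KRT8 near 0 with both siRNAs, and the 2 probes of KRT80 went opposite ways. KRT7, the type II chain added to KRT8 in ducts and glands, had a Cy3 intensity of 2385 and a Cy5 intensity of 1855 with siRNA 1, then 2194 and 1591 with siRNA 2. The Non-T channel was above the knockdown channel on both. The ratios were -0.66 and -0.76, or 0.633-fold and 0.591-fold, and 3.47% and 3.48% of all detected probes lay as far from 0. The direction held under all 7 processing settings, with ratios from -0.66 to -0.42 for siRNA 1 and from -0.76 to -0.50 for siRNA 2. Among these settings, keeping outlier spots could change no keratin ratio, since no keratin spot was an outlier.

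KRT80 is a type II keratin found in many epithelia. Its probe A_24_P349264, at chr12:50853813-50860620 in hg18, had intensities of 1748 in Cy3 and 3644 in Cy5 with siRNA 1, and of 1406 and 4240 with siRNA 2. The knockdown channel was the brighter on both arrays, with ratios of 0.77 and 1.28 (1.70-fold and 2.43-fold), and 0.506% of all detected probes were as far from 0 with siRNA 2. Its other probe, A_24_P331704, at chr12:50849752-50849811, had 797 and 854 with siRNA 1, and 645 and 489 with siRNA 2. Those ratios were -0.15 and -0.62, so with siRNA 2 the probes of KRT80 stood on opposite sides of 0. The array's annotation lists both probes for the same 2 RefSeq mRNAs of KRT80. The first covers 6808 bases of the genome from end to end and the other 60. Which of the 2 probes follows the KRT80 mRNA cannot be told from these arrays, so no direction is given for the gene.

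KRT8, the first type II chain of simple epithelia, had probes with Cy3 and Cy5 intensities of 2515 and 2967 (siRNA 1) and 2142 and 2333 (siRNA 2) for A_23_P14072. The ratios were -0.07 and -0.19, and 0.19 and 0.08 with median centring in place of loess, so its sign depends on the scaling. The dimmer probe, A_24_P67395, had intensities between 103 and 133 and ratios of -0.06 and -0.05.

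For the type I keratins of simple epithelia, the 5 detected probes all had lower ratios with siRNA 2 than with siRNA 1. Of these, 4 are named KRT18 and the other is of KRT19, so they are not 5 genes. Over all detected probes, the median difference between the arrays was near 0. KRT18, the partner of KRT8, had 3 probes for its RefSeq mRNA. Probe A_32_P151544 had 10046 in Cy3 and 15247 in Cy5 with siRNA 1, and 9154 and 10405 with siRNA 2. Its ratios were 0.19 and -0.23. Probe A_24_P42136 had 2599 and 3274, then 2317 and 2254, with ratios of 0.03 and -0.35. Probe A_23_P99320 had 3450 and 3670, then 2945 and 2501, with ratios of -0.23 and -0.56. The 3 probes thus disagreed in level of ratio and in sign with siRNA 1, and were all below 0 with siRNA 2. Their siRNA 2 ratio minus their siRNA 1 ratio was -0.43, -0.38 and -0.33. Between 12.6% and 20.5% of all detected probes differed by as much between the arrays. A 4th probe, A_24_P924957, of an EST named KRT18, had intensities between 96.3 and 122 and ratios of 0.30 and -0.06. The array's coordinates put it on the opposite strand to the other 3, so it may not measure KRT18 mRNA.

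KRT19, a short type I keratin of simple epithelia, had intensities of 53402 in Cy3 and 89318 in Cy5 with siRNA 1, and of 47923 and 66096 with siRNA 2. Before loess the Cy5 signal was the higher on both arrays. The ratios after loess were 0.20 and -0.09. With median centring they were 0.68 and 0.41, so the sign with siRNA 2 turned. Centring in place of loess put the median of all detected probes at 0.11 and 0.10. It also turned the sign of KRT18 probe A_32_P151544 with siRNA 2 (0.13), of A_23_P99320 with siRNA 1 (0.04), and of KRT80 probe A_24_P331704 with siRNA 1 (0.07).

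**Figure D3:**
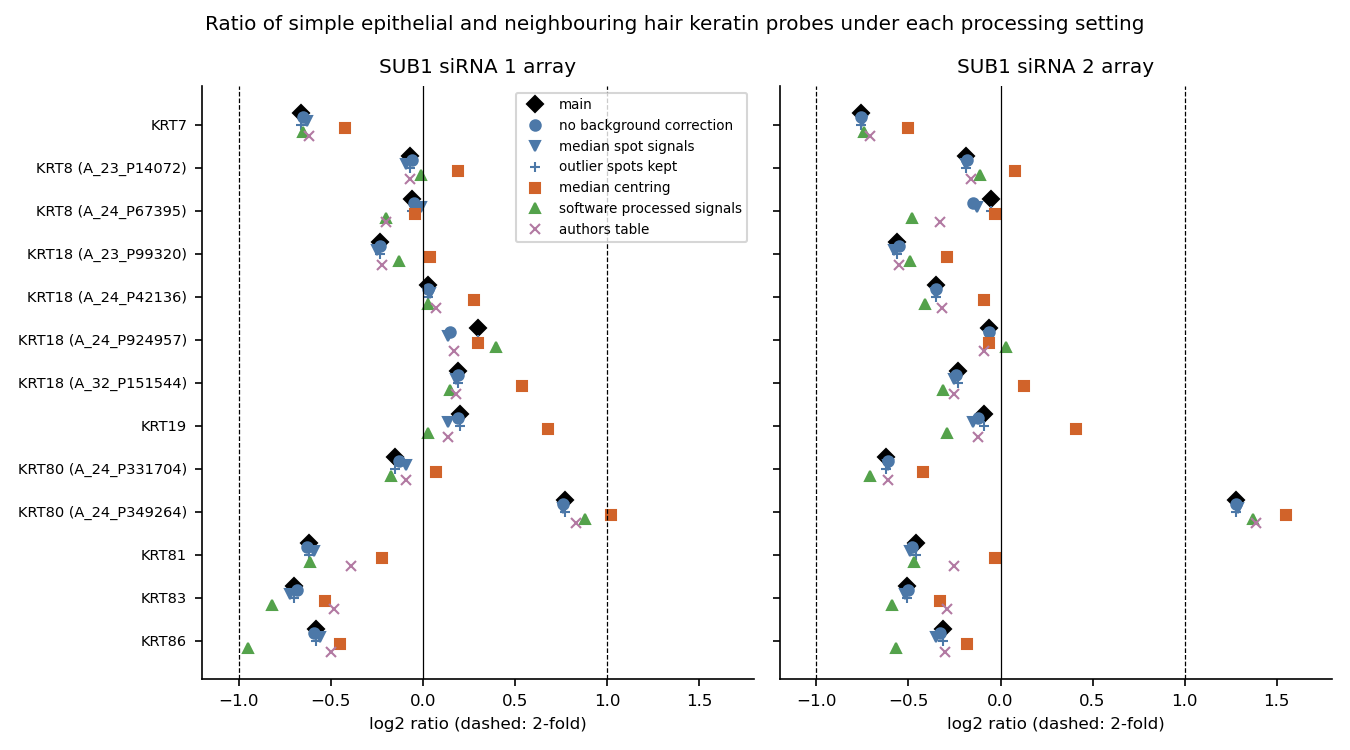
Log2 ratio of the detected probes of KRT7, KRT8, KRT18, KRT19, KRT80, KRT81, KRT83 and KRT86 under 7 ways of processing the same 2 arrays (symbols). The siRNA 1 array is on the left and the siRNA 2 array on the right, and dashed lines mark 2-fold. Median centring (orange squares) moved bright probes such as KRT19 and KRT81 furthest to the right, while the KRT80 probes stayed on opposite sides of 0 with siRNA 2 under every setting, as KRT7 stayed below 0.

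In the basal group, KRT14, the type I chain of basal cells, had intensities of 311 in Cy3 and 359 in Cy5 with siRNA 1 and of 259 and 296 with siRNA 2. Its ratios were 0.09 and 0.06. KRT15, a type I keratin of basal and stem-like cells, had 620 and 678, then 501 and 601, with ratios of -0.08 and 0.06. These 4 ratios, of the brighter KRT14 probe and of KRT15, were smaller in size than the SD over all detected probes (0.29 with siRNA 1 and 0.33 with siRNA 2).

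Of the keratins of stratified layers, KRT10, the type I chain of the upper epidermis, had intensities of 7967 and 10301 with siRNA 1 and of 6402 and 10154 with siRNA 2. Its ratios were -0.02 and 0.26, and 0.31 and 0.61 with median centring. KRT3, a type II keratin of the cornea, had 216 and 256, then 189 and 226, with ratios of 0.16 and 0.21, above 0 under all 7 settings. KRT13 and KRT4, the pair of mucosal stratified epithelium, and KRT9, of palms and soles, had intensities between 88.5 and 126, close to background. Their ratios were -0.12 and -0.19 for KRT13, -0.10 and 0.09 for KRT4, and -0.01 and 0.00 for KRT9.

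Among the hair and nail keratins, KRT81, KRT83 and KRT86, close relatives that are type II chains of the hair cortex, were lower with both siRNAs. KRT81 had intensities of 28146 in Cy3 and 25243 in Cy5 with siRNA 1, and of 24434 and 24914 with siRNA 2. The channels were thus close before loess, and on the siRNA 2 array Cy5 was slightly above Cy3. The ratios were -0.62 and -0.46, and -0.22 and -0.03 with median centring. KRT83 had 501 and 349, then 444 and 353, with Cy5 below Cy3 on both arrays and ratios of -0.70 and -0.51. KRT86 had 317 and 222, then 258 and 219, with ratios of -0.58 and -0.31. All 3 stayed below 0 under the 7 settings. The KRT83 probe is listed on the array for the KRT86 mRNA too, so these probes may share signal and are not separate measurements of 3 genes.

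KRT33A, a type I hair keratin, had 411 and 389 with siRNA 1 and 324 and 268 with siRNA 2, and ratios of -0.25 and -0.43. Its probe is also listed for the mRNAs of KRT31 and KRT35. KRT31 itself had intensities between 134 and 156, with ratios of -0.03 and 0.11, KRT32 had 93.3 to 127, with ratios of 0.03 and -0.23, and KRT84 had 147 to 169, with ratios of 0.09 and 0.22.

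Between the arrays, the largest rise in ratio from siRNA 1 to siRNA 2 among detected keratin probes was that of KRT34, and the largest drop was that of KRT85, both hair keratins. KRT34 had intensities of 207 in Cy3 and 125 in Cy5 with siRNA 1, and of 165 and 153 with siRNA 2. Its ratio was -0.78 with siRNA 1 and -0.09 with siRNA 2, a difference of 0.69, and 3.80% of all detected probes differed by as much. KRT85 had 138 and 197, then 172 and 179, with ratios of 0.57 and 0.08. Its difference of -0.49 was matched or passed by 9.04% of all detected probes. With 1 array per siRNA, neither difference could be tested.

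**Figure D4:**
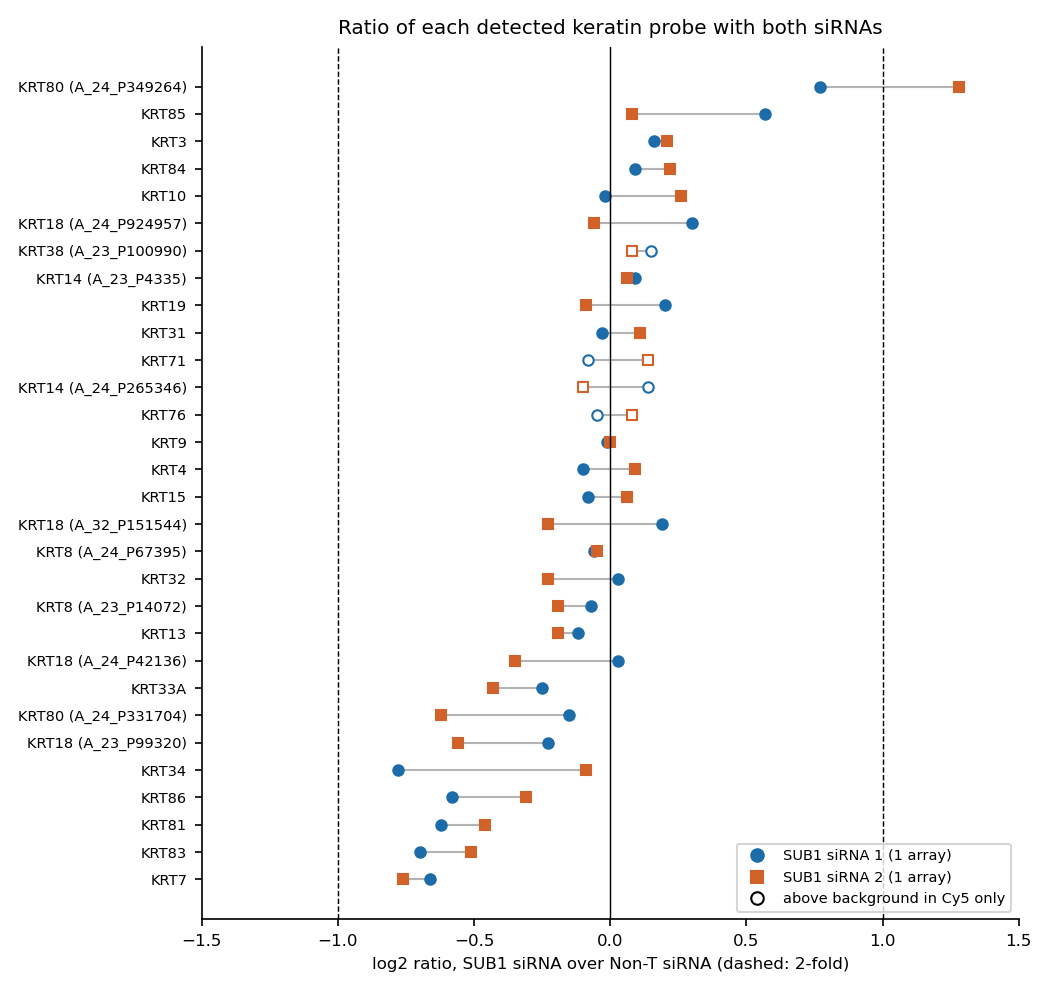
Log2 ratio of the 30 detected keratin probes with siRNA 1 (blue circles) and siRNA 2 (orange squares), 1 array each, ordered by their mean; open symbols are probes well above background in Cy5 only. KRT7, KRT83, KRT81 and KRT86 have the lowest means and lie below 0 with both siRNAs, KRT34 and KRT85 have long lines between the siRNAs, and KRT80 appears far apart in its 2 probes.

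Along chromosome 12, the keratin probes spanned 0.783 Mb of hg18 and 13 of 27 genes were detected. Along chromosome 17 they spanned 0.964 Mb and 11 of 27 genes were detected. The median ratio was -0.06 and -0.12 (siRNA 1 and siRNA 2) over the 18 detected probes of chromosome 12, and -0.01 and -0.04 over the 12 of chromosome 17. In gene order, KRT7, KRT81, KRT86 and KRT83 were neighbours with no other keratin probe between them, at chr12:50917564-50997003, a stretch of 79.4 kb. After loess they were the 4 detected keratin genes of lowest mean ratio, but KRT86 (-0.45) was close to KRT34 (-0.43) of chromosome 17. With median centring KRT81 had -0.22 and -0.03, and KRT34 had -0.71 and -0.01, so this ranking depends on the processing. The next genes along chromosome 12, KRT85 and KRT84, had ratios above 0 with both siRNAs. KRT8 and KRT18, a pair in the filament and 49.6 kb apart on the same chromosome, had ratios of -0.07 and -0.19 (KRT8, A_23_P14072) beside 0.19 and -0.23 (KRT18, A_32_P151544). The stretch was singled out after its values were seen, and no test was made of it.

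**Figure D5:**
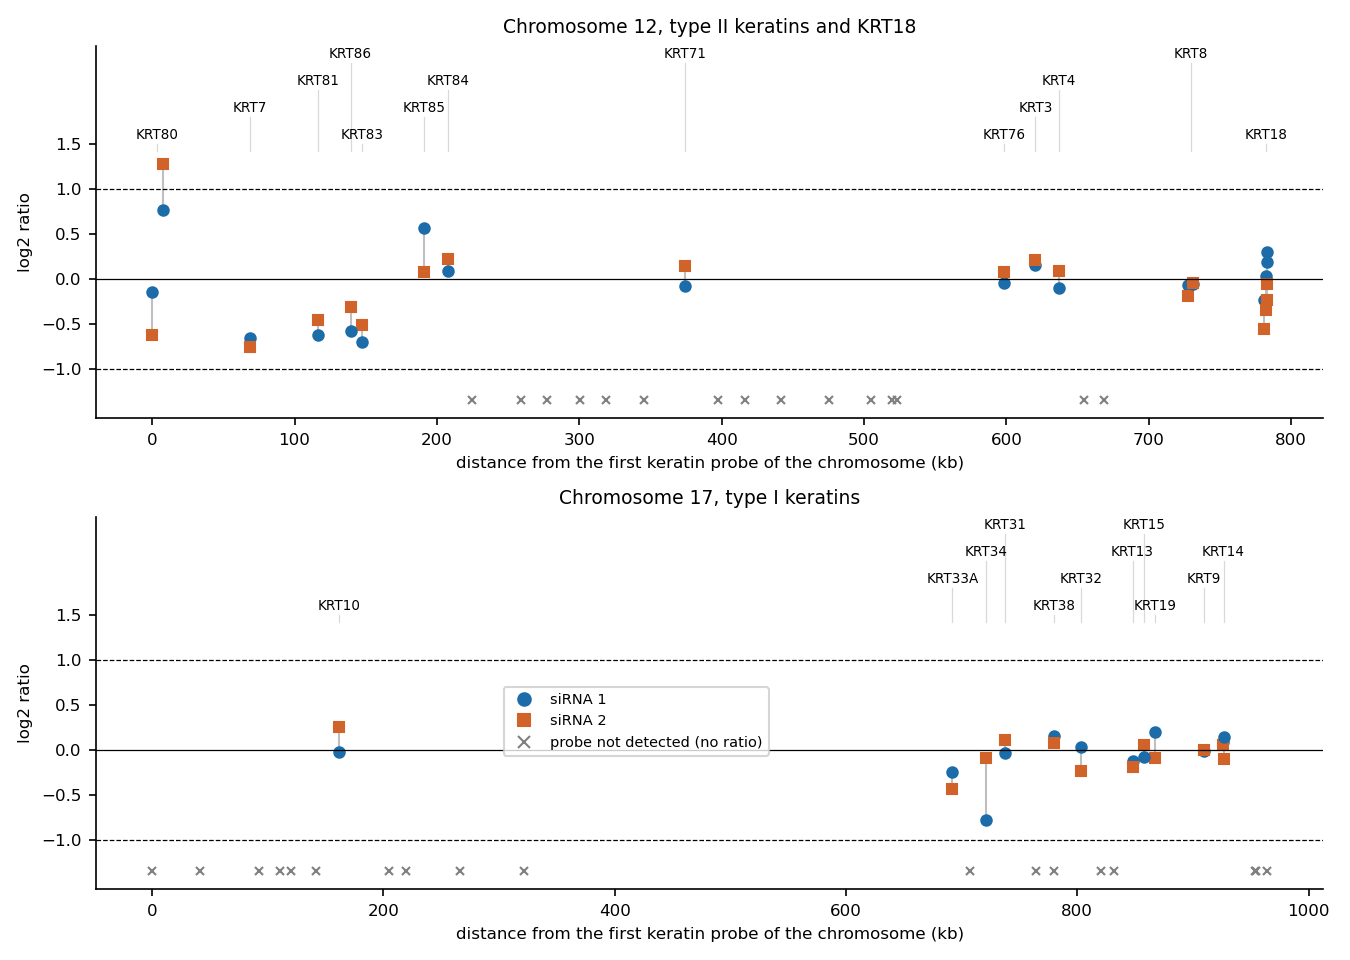
Log2 ratio of detected keratin probes against distance in kb from the first keratin probe of chromosome 12 (top) and of chromosome 17 (bottom), with blue circles for siRNA 1, orange squares for siRNA 2 and crosses for probes not detected. The neighbours KRT7, KRT81, KRT86 and KRT83 lie below 0 with both siRNAs, and the stretch that follows KRT84 has crosses for KRT82, KRT75, the KRT6 genes and KRT5.

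For 4 probes, detection rested on the Cy5 channel alone on both arrays, those of KRT76, KRT71, KRT38 (A_23_P100990) and the dimmer KRT14 probe (A_24_P265346). Their Non-T level was not well above background. Before normalization their Cy5 signal was below their Cy3 signal on both arrays. For folds after loess, the Non-T level was set no lower than the lowest level of any probe well above background in Cy3. KRT38 then had 1.11-fold and 1.05-fold the Non-T level, the KRT14 probe 1.1-fold with siRNA 1, and the others 1.00 or less. At such dim signal these folds are not lower limits, and they depend on the processing. With siRNA 1 the KRT14 ratio was 0.14 here and -0.38 in the authors' table, and the KRT38 ratio was 0.15 here and 0.01 there, so no direction is given for either probe.

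Taking both siRNAs as separate knockdowns, the mean ratio of each probe was tested against 0 with limma. None of the 30 keratin probes passed a Benjamini-Hochberg adjusted p of 0.05. Over all 25673 detected probes, 0.0117% did, which were 3 SUB1 probes. Adjusted p-values of the keratins ran from 0.103 to 0.984. At an unadjusted p under 0.05 there were 8 keratin probes, or 26.7%, beside 21.2% of all detected probes. KRT7 had a mean of -0.71 (SE 0.10, 2 arrays, adjusted p = 0.103), and KRT80 probe A_24_P349264 had one of 1.02 (SE 0.15, adjusted p = 0.103). KRT83 had a mean of -0.60 (SE 0.10, adjusted p = 0.109) and KRT81 one of -0.54 (SE 0.10, adjusted p = 0.115). The other probes among the 8 were those of KRT86 and KRT33A, KRT18 probe A_23_P99320 and the other KRT80 probe. Without the filter on dim probes, KRT7 and KRT80 probe A_24_P349264 passed with an adjusted p of 0.0459 each, among 452 of 40999 probes called. Their ratios were the same, and only the probes entered in the fit differed.

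Of 54 partner genes, which anchor keratin filaments, regulate keratin genes or build other filaments, 38 were detected, with medians of -0.02 and -0.03. With siRNA 1, 1 of the 38 passed 2-fold upwards and 1 downwards, where 0.195% and 0.557% of all detected probes did. NEFL, the light chain of neurofilaments, was past 2-fold with siRNA 1 (1.22), and had 0.58 with siRNA 2 (limma adjusted p = 0.12), in the brighter of 2 detected probes. LMNB2, a nuclear lamin, was past it in the other direction (-1.49), with -0.39 for siRNA 2 (limma adjusted p = 0.171). Past 2-fold with siRNA 2 were 0 partner genes. In bulk RNA, a change in every cell and a change in the share of cells cannot be told apart.

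DSP, the desmosomal plakin that binds keratin filaments, had intensities of 263 in Cy3 and 398 in Cy5 with siRNA 1, and of 101 and 94.8 with siRNA 2. Both channels were thus lower on the second array, the Non-T channel included, and the ratios were 0.47 and 0.05. The probe was not well above background in every channel. Its Cy3 intensity with siRNA 2 was below the highest of the undetected keratin probes (104), so the ratio there was taken near background. JUP, which links desmosomal cadherins to DSP, had ratios of 0.23 and -0.19, and PKP3, another desmosomal plaque protein, 0.25 and 0.25. PLEC, the plakin of hemidesmosomes, had -0.42 and -0.23, and VIM, the mesenchymal filament protein, -0.28 and -0.48. These are ratios of the brightest of 3 (PLEC) and 2 (VIM) detected probes. With median centring those of PLEC were -0.18 and 0.02 and those of VIM 0.15 and -0.03. EPPK1, a plakin bound to keratin, was not detected.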

How the data were processed

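RNA of PC3 cells was measured on 2 dual-colour Agilent arrays of the same slide (Cy3, Non-T siRNA; Cy5, SUB1 siRNA 1 or 2). The authors scanned them and deposited spot intensity and local background per channel from Feature Extraction 9.5.1.1, with its other per-spot flags, and a table of log2 ratios normalized by loess. Here limma 3.58.1 (R 4.3.3) was used to correct mean intensities for background by normexp (offset 50) and to normalize each array by loess (span 0.3). Spots flagged as outliers were dropped and spots of a probe averaged. Detection needed 0.5 of a probe's spots. Centring stays unknown for the authors' table. Its direction is knockdown over control: its values had a Pearson r of 0.958 (siRNA 1) and 0.970 (siRNA 2) across probes with the ratios from median signals. The software's log10 ratios were not used.

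Coordinates are those of the array files, whose header names hg18 (NCBI build 36); exons and introns were not assigned. Names came from a RefSeq table (GRCh38.p14), which gave no coordinates here and renamed 2 members (KRT79 and KRT222). Intensities are mean scanner signals before correction. Named were all genes above background in all 4 channels, probes past 2-fold, probes of 1 gene with opposite signs beyond 0.3, and the largest difference between arrays each way. The keratins, the lists of partners and markers and the tests were chosen with earlier results of these data known. The limma fit (intercept, eBayes, 25673 probes) treats the siRNAs as replicates, and leaves out the spread of the control. It was tested on simulated data. Some marker genes are not reported here. The number of arrays limits the precision. Alternatives were no background correction, median signals, median centring, processed signals, the authors' table, outlier spots kept, other filters, the brightest probe per gene and an intensity trend.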

Additional observations from a re-analysis of the deposited data

Results flagged for a closer look

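KRT18 probe A_32_P151544 had a ratio of 0.19 with siRNA 1 and of -0.23 with siRNA 2. Both lay beyond 2 times the median SD over repeated spots of an array, which covers spotting and scanning only. Of all detected probes, 41.5% and 37.4% lay as far from 0, and 12.6% differed as much between the arrays. KRT18 probe A_24_P42136 had 0.03 and -0.35, and A_23_P99320 had -0.23 and -0.56. With median centring both ratios of A_32_P151544 were above 0 (0.54 and 0.13). The difference between the siRNAs was not tested, since each had 1 array.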

How the results depend on the processing

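No paired analysis was possible because knockdown and control already share every array, and each siRNA has 1 array; the slide could not be fitted as a block because both arrays lie on 1 slide. Without the filter on dim probes all 63 keratin probes entered, and 2 of them (KRT7 and KRT80 probe A_24_P349264) passed the limma test. In that fit 452 of all 40999 probes passed, against 3 of 25673 with the filter. Median centring put 1 probe (the same KRT80 probe, 1.02) past 2-fold higher with siRNA 1, where 0.658% of all detected probes passed. It gave medians over the keratin probes of 0.05 (siRNA 1) and 0.03 (siRNA 2). The software's processed signals put 1 probe higher (KRT85, 1.21) and 1 lower (KRT34, -1.28) with siRNA 1, and 2 higher with siRNA 2 (KRT71, 1.56, and KRT80, 1.37). Under that setting 3.97% of all detected probes passed 2-fold upwards and 1.5% downwards with siRNA 1, and 5.09% and 2.5% with siRNA 2. The keratin counts there are thus not read as a result about keratins. The authors' table gave a median of -0.15 with siRNA 2 and of -0.12 for the mean of both arrays. The brightest probe per gene gave a median of 0.03 with siRNA 2. The median of the mean ratios was -0.01, and leaving out either array gave -0.07 to -0.04. The KRT80 probe was past 2-fold with siRNA 2 under every setting that was run (1.28 to 1.55). The lowest keratin adjusted p was 0.0694 to 0.168 under the other alternatives, with 0 keratin probes called. Of the 52 ratios compared for the probes above background in all channels, 9 changed sign with median centring, 3 each with processed signals and the authors' table, and 2 each with median signals and no background correction. The causes were not tested. For the 33 probes without detection, a difference was not detectable at this signal.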

Other observations

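Probes whose names are KRT18 pseudogenes were not members, and their values are given here without explanation. Of 17 such probes, 16 were detected, with a median ratio of -0.07 with siRNA 1 (-0.18 to 0.19) and of -0.42 with siRNA 2 (-0.59 to -0.04). In 15 of the 16, the siRNA 2 ratio lay below the siRNA 1 ratio, and the median difference was -0.37. The 3 probes of the KRT18 RefSeq mRNA differed by a median of -0.38. Whether the pseudogene-named probes measured KRT18 mRNA was not tested. Of 10 KRT8 pseudogene probes, 7 were detected, with medians of 0.00 and -0.10, and both KRT19 pseudogene probes were detected, with medians of -0.16 and -0.31.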
